A study of Mus musculus with 39 samples.

Results

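Whole dorsal root ganglia (DRG) of segmental level L5 were compared with whole DRG of level L1 in adult mice that had lived with a running wheel, on 3 arrays for each level. These 6 arrays were all those of this kind among the 39 mouse DRG arrays of the study, which asked how neurotrophin 3 (NT3) sets gene transcription in proprioceptors and whether physical exercise alters it in the adult. The other adult arrays held L5 and L1 DRG of mice without wheels, 3 for each level, and the remaining 27 held neurons sorted from newborn (p0) mice by a TrkC-GFP reporter that all of them carried. Of these, 11 arrays compared L5 with L1 in mice with no other allele, and 16 held pooled lumbar DRG of mice that had the reporter alone, Bax-/-, NT3-/- with Bax-/-, or the muscle NT3 transgene MlcNT3, 2 for each genotype and TrkC sign. All mice of the 4 adult groups were wild type and carried no mutant allele. The labels gave their strain background as 129/C57Bl6 and their age as adult, whereas the methods described male C57Bl6 mice. The running animals were 5 weeks old at the start and had 5 weeks of voluntary access to a wheel, whereas their control siblings were housed alike but had no wheel to run in. How many ganglia or animals entered each array, and whether arrays of equal number came from the same mice, was not stated, so that the p-values below measure the spread between these samples. The sample titles also carried a TrkC sign that followed the level, but the adult ganglia were not sorted and the sign was ignored.

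DRG hold the cell bodies of sensory neurons with their satellite glia, Schwann cells, vessels and connective tissue sheath. L5 ganglia lie within the limb enlargement and supply much of the hindlimb, including its muscles and foot skin, while L1 ganglia lie above it and supply mainly trunk and groin. Proprioceptors report muscle stretch and tension and depend on NT3 and its receptor TrkC, nociceptors and thermoreceptors report noxious and thermal stimuli, and low-threshold mechanoreceptors report touch. Position along the body axis is set by Hox genes, which are expressed in nested domains in the order in which they lie in their clusters.

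All arrays carried the marks of sensory ganglia. The proprioceptor, nociceptor, Schwann cell and satellite glia markers were bright at both levels, the oligodendrocyte gene Olig2 lay between 7.26 and 8.58 intensity units, and none of 15 markers of spinal cord neurons and central glia differed between levels. These 15 summed to 710 to 731 at L5 and 674 to 711 at L1 with wheels, and 13 lay below the median brightness of all probe sets. Values are RMA intensities on a linear scale, which have no unit and cannot be compared between genes. The 3 running wheel arrays of each level correlated at 0.996 or above. Replicates 2 and 3 of L1 had a brighter upper end than the rest: their 99th percentiles of log2 intensity were 12.46 and 12.42, against 11.97 in L1 replicate 1 and 12.04 to 12.21 in the L5 arrays.

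With wheels, 1470 of 45037 probe sets were higher at L5 (3.26%) and 976 were lower (2.17%) at an adjusted p under 0.05 (limma's moderated test, Benjamini-Hochberg over all probe sets). By the criteria the study applied (1.5-fold, with an unadjusted p no higher than 0.02, here from limma), the counts were 657 (1.46%) and 341 (0.757%). Taking the brightest probe set of each of 18193 genes, 726 genes rose at L5 (3.99%), 563 fell (3.09%), and the median log2 difference over all genes was -0.02. "Rose" and "fell" below refer to L5 relative to L1 at the adjusted threshold, and differences are log2 L5 minus L1 with limma's standard error. Ganglia are mixtures, so that fewer cells of a type and less RNA per cell cannot be told apart. Among all genes, 14% had every L5 array above every L1 array and 12.6% had every L5 array below. Such a lack of overlap was a condition for the 15 leading rises and the 15 leading falls named below, and is no support for them. Without L5 replicate 1 the adjusted counts were 829 and 475 probe sets, and without L5 replicate 2 the count of rises was 813.

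The largest rise was that of Hoxc10, and the largest falls were those of Chrnb4 and Chrna3, which encode the beta 4 and alpha 3 subunits of the neuronal nicotinic acetylcholine receptor and lie next to each other in the genome. Hoxa10, a paralogue of Hoxc10, was likewise far apart between the levels. The windows around the RefSeq start sites (build GRCm38.p6) of Chrna3, Chrnb4 and Hoxa10 are printed here because these genes were among those that separated the levels most clearly. Each runs 5′ to 3′ on the minus strand, from 250 bases before to 50 bases after the annotated start, and capitals mark GGGCGG or its reverse complement CCGCCC, the core of a GC box.

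Chrna3, chr9:55026513-55026812: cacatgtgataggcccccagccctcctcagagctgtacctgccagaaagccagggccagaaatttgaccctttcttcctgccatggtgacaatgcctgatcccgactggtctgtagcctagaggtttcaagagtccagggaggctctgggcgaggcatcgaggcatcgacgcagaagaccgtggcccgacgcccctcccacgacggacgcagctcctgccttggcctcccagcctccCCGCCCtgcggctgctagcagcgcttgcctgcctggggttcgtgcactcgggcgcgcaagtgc
Chrnb4, chr9:55048495-55048794: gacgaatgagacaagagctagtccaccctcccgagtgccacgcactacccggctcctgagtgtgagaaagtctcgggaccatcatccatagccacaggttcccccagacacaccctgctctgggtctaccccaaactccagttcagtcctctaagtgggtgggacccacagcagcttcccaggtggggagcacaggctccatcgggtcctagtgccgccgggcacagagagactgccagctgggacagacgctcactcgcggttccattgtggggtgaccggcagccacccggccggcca
Hoxa10, start site 1, chr6:52234890-52235189: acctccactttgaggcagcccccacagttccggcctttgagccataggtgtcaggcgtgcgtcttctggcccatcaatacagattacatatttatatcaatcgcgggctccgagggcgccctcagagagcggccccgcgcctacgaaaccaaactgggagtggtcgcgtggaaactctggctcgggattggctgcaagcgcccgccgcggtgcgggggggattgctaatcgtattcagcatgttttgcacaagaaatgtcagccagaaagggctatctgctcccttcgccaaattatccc
Hoxa10, start site 2, chr6:52240805-52241104: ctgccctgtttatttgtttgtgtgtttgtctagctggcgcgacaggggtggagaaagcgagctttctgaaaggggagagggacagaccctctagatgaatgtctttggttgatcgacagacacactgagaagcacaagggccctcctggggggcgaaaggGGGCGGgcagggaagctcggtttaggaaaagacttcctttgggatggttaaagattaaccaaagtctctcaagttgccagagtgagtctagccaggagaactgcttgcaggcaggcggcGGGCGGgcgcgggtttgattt

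The motif was found 1 time in the Chrna3 window, 0 times in the Chrnb4 window, 0 times at the first Hoxa10 start site and 2 times at the second. Of all 32851 windows of the same length, 35.7% held it on either strand. TATAAA or its reverse complement TTTATA was found at the first Hoxa10 start site alone among these 4 windows, against 13.6% of all windows. The arrays do not tell which Hoxa10 start site was in use.

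Among 33 measured Hox genes, 6 rose and 1 fell, and 26 did not pass the test. Hoxc10, a gene of the paralogue group whose expression begins at lumbar levels, had intensities of 507, 479 and 512 in the L5 arrays and of 49.2, 56.4 and 58.6 in the L1 arrays. The groups did not overlap, and the difference was 3.19 ± 0.15 (SE, adjusted p = 2.31e-08). Hoxa10, of the same paralogue group, had intensities of 702, 704 and 746 at L5 and of 159, 144 and 165 at L1. Again every L5 array lay above every L1 array, with a difference of 2.20 ± 0.11 (adjusted p = 2.31e-08). The second, dim Hoxa10 probe set gave -0.04 ± 0.10. The remaining measured member of the group, Hoxd10, had intensities of 71.7, 40.2 and 76.1 at L5 and of 30.3, 27.7 and 24.4 at L1. Its groups did not overlap either, but the spread within L5 was wide and the difference of 1.14 ± 0.39 did not pass the test (adjusted p = 0.107).

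The other Hox rises were smaller. Hoxb6 (0.59 ± 0.10), Hoxb9 (0.52 ± 0.09) and Hoxd9 (0.46 ± 0.09) rose, and Hoxc8 rose by 0.54 ± 0.13, a call that was lost when any of L5 replicates 1 to 3 or L1 replicates 2 and 3 was left out (highest adjusted p, 0.0794). Of the group 9 genes that did not pass on their brightest probe set, Hoxa9 differed by 0.33 ± 0.12 on its brightest probe set (adjusted p = 0.120), while its other probe set was called higher at 0.59 ± 0.12 (adjusted p = 0.00692), and Hoxc9 by 0.30 ± 0.10 (adjusted p = 0.0963). Hoxd1, which is expressed in nociceptors, was the only Hox gene of these 33 that fell: it had intensities of 484, 524 and 443 at L5 and of 724, 776 and 819 at L1 (-0.68 ± 0.10, adjusted p = 0.00105). No gene of paralogue groups other than those of the 7 named calls passed the test.

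**Figure D1:**
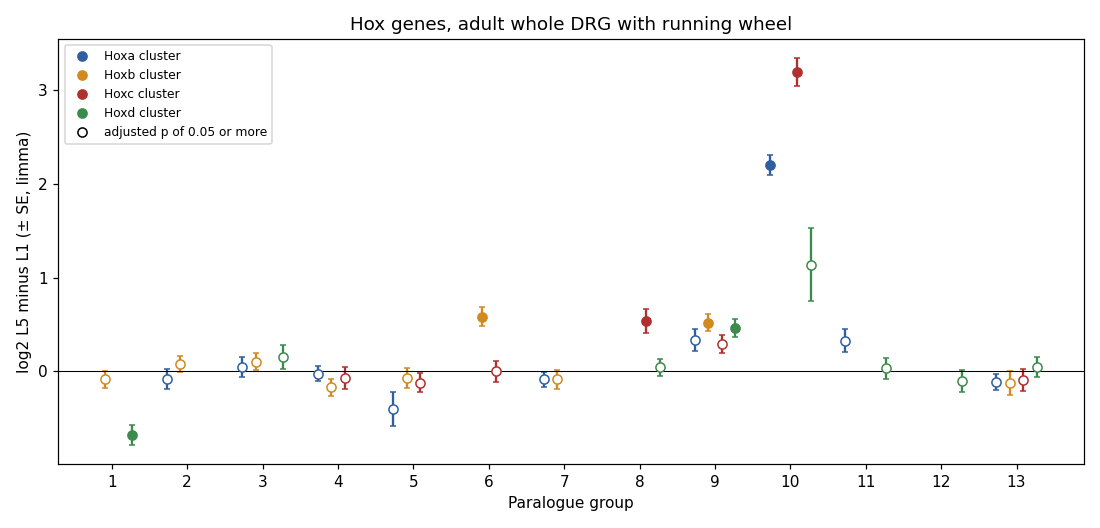
Log2 difference of L5 minus L1 with running wheels for 33 Hox genes, by paralogue group and cluster, with limma's SE. Filled points passed an adjusted p of 0.05. The 3 genes of group 10 stand highest, at 3.19 for Hoxc10, 2.20 for Hoxa10 and 1.14 for Hoxd10, and Hoxd1 lies lowest at -0.68.

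In newborn mice the same probe sets had been measured in sorted neurons of both levels. Of all genes, 0.192% were higher and 0.033% lower at L5 in TrkC-negative neurons at an adjusted p under 0.05, and 0.363% and 0.137% in TrkC-positive neurons. Of the 726 genes that rose in the adult, 24 were also higher in the former and 13 in the latter, and of the 563 that fell, 3 and 2 were also lower. In TrkC-negative neurons, Hoxc10 was higher at L5 by 2.36 ± 0.22 (adjusted p = 0.00166), Hoxd9 by 1.94 ± 0.23 (adjusted p = 0.00748) and Hoxa10 by 1.44 ± 0.16 (adjusted p = 0.005). In TrkC-positive neurons the differences of Hoxc10 (0.83 ± 0.25), Hoxd9 (1.16 ± 0.26) and Hoxa10 (0.90 ± 0.18) had the same sign and did not pass the test. The sorted neurons came from other animals than the adult ganglia and shared no array with them.

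Nicotinic receptor subunits carried the largest falls. Chrnb4 had intensities of 74.8, 57.1 and 71.3 at L5 and of 364, 271 and 289 at L1 (-2.18 ± 0.14, adjusted p = 3.56e-07). Chrna3 had intensities of 136, 131 and 131 at L5 and of 617, 561 and 591 at L1 (-2.15 ± 0.12, adjusted p = 1.69e-07). For both genes all L5 arrays lay below all L1 arrays, and all probe sets of both genes fell. Of 15 measured subunits, a list drawn up after these values had been seen, 4 fell and 0 rose. The others that fell were Chrna6 (-0.67 ± 0.10) and Chrnb3 (-0.66 ± 0.12), while Chrna5, a neighbour of Chrna3 and Chrnb4, differed by 0.37 ± 0.10 the other way (adjusted p = 0.0513) near the lower end of the intensity scale.

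Chrna3 and Chrnb4 are also abundant in sympathetic neurons, and the sympathetic chain runs beside the lumbar ganglia of both levels. The catecholamine enzyme Th, which marks sympathetic neurons as well as C-fibre low-threshold mechanoreceptors, had intensities of 742, 771 and 680 at L5 and of 1392, 1655 and 1679 at L1 (-1.11 ± 0.12, adjusted p = 8.22e-05). Of 9 sympathetic markers, also listed after the values had been seen, Th and Insm1 fell. The Insm1 call was lost without any 1 of L1 replicates 1 and 3 and L5 replicates 1 and 3 (highest adjusted p, 0.0683). The summed level of the 9 lay between 1175 and 1291 at L5 and between 1986 and 2244 at L1, most of it Th. Dopamine beta-hydroxylase (Dbh), which sympathetic neurons need to make noradrenaline, had intensities of 126 to 136 at L5 and 127 to 137 at L1 (-0.02 ± 0.10). The noradrenaline transporter Slc6a2 had intensities of 61.9 to 73.0 at L5 and 77.3 to 99.2 at L1 (-0.38 ± 0.12, adjusted p = 0.0776). The part of sympathetic cells in the nicotinic difference was not tested.

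The neuropeptide gene galanin and its receptor were among the 15 largest falls. Galanin (Gal) had intensities of 221, 263 and 217 at L5 and of 755, 655 and 721 at L1 (-1.61 ± 0.12, adjusted p = 2.41e-06). Its receptor Galr1 had intensities of 26.8, 29.5 and 24.0 at L5 and of 103, 52.7 and 79.1 at L1 (-1.50 ± 0.18, adjusted p = 0.000126). For Galr1 the L1 arrays were more widely spread than the L5 arrays. Its dimmer probe sets gave -0.71 ± 0.10, which passed, and -0.29 ± 0.11, which did not. Mrap2, an accessory protein of melanocortin receptors, had intensities of 151, 140 and 138 at L5 and of 550, 428 and 488 at L1 (-1.77 ± 0.15). Shisa6, an auxiliary protein of AMPA receptors, had intensities of 38.8, 38.2 and 38.1 at L5 and of 135, 93.5 and 140 at L1 (-1.65 ± 0.23). Shisa6 was also lower at L5 in both newborn populations, by -1.17 ± 0.17 in TrkC-positive (adjusted p = 0.018) and -0.92 ± 0.15 in TrkC-negative neurons (adjusted p = 0.0469), and Chrnb4 was lower in newborn TrkC-negative neurons by -2.12 ± 0.30 (adjusted p = 0.0233). The remaining genes of the 15 were Tc2n, Cracdl, Gadl1, Aox3, Hpcal4, Krt25, Rassf9, 1500009L16Rik and Ttc29, with differences from -1.56 to -1.19.

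**Figure D2:**
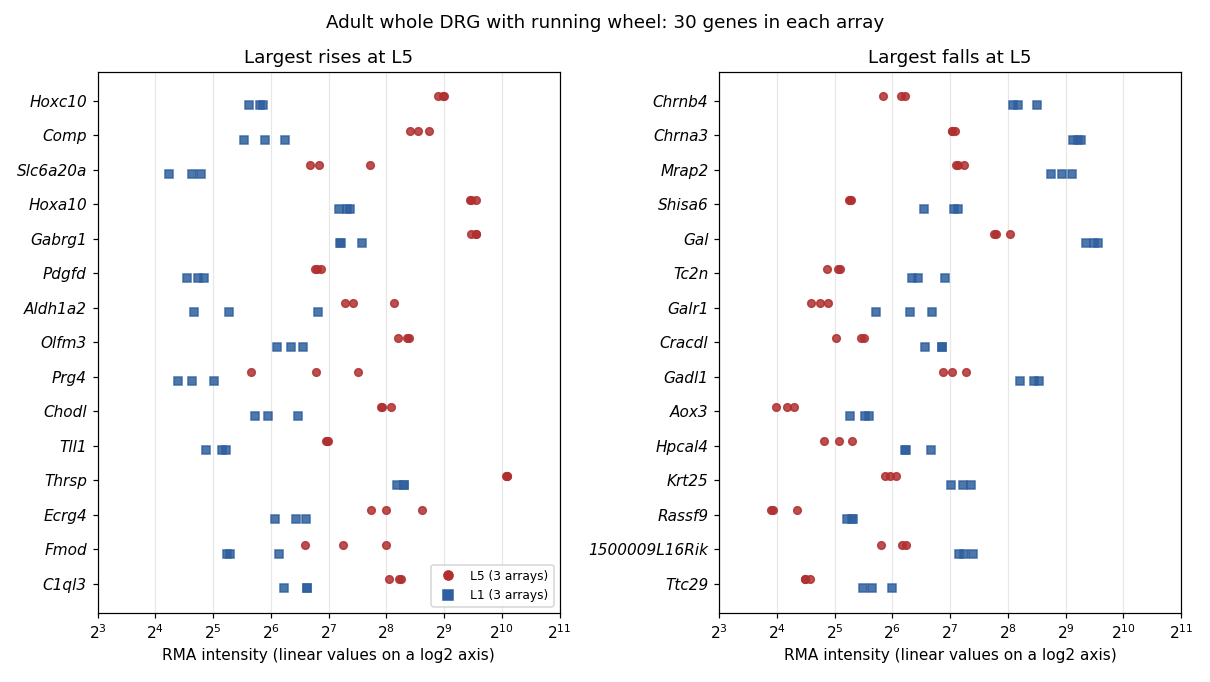
RMA intensity in each running wheel array, on a log2 axis, for the 15 genes with the largest rise and the 15 with the largest fall at L5 among called genes whose groups did not overlap. Circles are the 3 L5 arrays and squares the 3 L1 arrays. Hoxc10, Thrsp and Tll1 are tight at both levels, whereas Prg4, Fmod and Aldh1a2 spread widely.

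Among the rises, Gabrg1, which encodes the gamma 1 subunit of the GABA-A receptor, had intensities of 748, 708 and 750 at L5 and of 147, 149 and 191 at L1 (2.19 ± 0.16, adjusted p = 1.1e-06). Its dimmer probe set gave 2.15 ± 0.12. The levels were far apart on every array. Of 15 measured GABA and glycine receptor subunits, Gabra5 (0.83 ± 0.10) and Gabra2 (0.46 ± 0.09) also rose, Gabrb1 fell (-0.61 ± 0.10), and 11 passed in neither direction.

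Further leading rises came from genes of varied function. Thrsp, a regulator of lipid synthesis, had intensities of 1074, 1087 and 1083 at L5 and of 290, 315 and 316 at L1 (1.82 ± 0.11, adjusted p = 1.69e-07). The other Thrsp probe sets gave 0.74 ± 0.10 and -0.10 ± 0.11, the latter not passing the test. Chodl, a C-type lectin-like membrane protein, had intensities of 271, 239 and 243 at L5 and of 88.7, 52.9 and 61.9 at L1 (1.92 ± 0.15). C1ql3, a secreted synaptic protein, had intensities of 298, 304 and 265 at L5 and of 74.6, 98.8 and 98.9 at L1 (1.68 ± 0.13). Thrsp was the tightest of the 3 within the L5 level. Pdgfd, a platelet-derived growth factor (2.10 ± 0.13), the secreted glycoprotein Olfm3 (1.98 ± 0.13) and the metalloprotease Tll1 (1.88 ± 0.13) rose by similar amounts. Of the 15, Gabrg1 and Olfm3 were also higher at L5 in newborn TrkC-positive neurons, by 2.84 ± 0.46 (adjusted p = 0.0281) and 1.53 ± 0.23 (adjusted p = 0.0195).

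Most measured proprioceptor markers rose. Of 7 measured, 4 rose and 0 fell, with a median difference of 0.43, and their summed level was 3152 to 3476 at L5 and 1966 to 1983 at L1. The calcium-binding protein parvalbumin (Pvalb) had intensities of 1616, 1853 and 1544 at L5 and of 905, 827 and 870 at L1 (0.94 ± 0.12, adjusted p = 0.000182). Pvalb made up the largest part of the summed level. The parathyroid hormone receptor Pth1r had intensities of 264, 244 and 224 at L5 and of 101, 103 and 91.5 at L1 (1.30 ± 0.15, adjusted p = 7.96e-05). In both, the lowest L5 array stood well above the highest L1 array. The nuclear receptor Esrrg rose by 0.72 ± 0.16 (adjusted p = 0.0136), a call that was lost without L5 replicate 2 (adjusted p = 0.0579). The other Esrrg probe sets did not pass (-0.07 ± 0.13 and 0.44 ± 0.18). The NT3 receptor TrkC (Ntrk3) rose by 0.43 ± 0.11 on its brightest probe set (adjusted p = 0.0361), but the other 7 probe sets did not pass, and the call was lost when any of the 6 running wheel arrays was left out (highest adjusted p, 0.121). Runx3 (0.10 ± 0.09), Whrn (-0.10 ± 0.10) and Heg1 (-0.34 ± 0.20) did not pass. With 1 array left out at a time, 2 to 4 of the list rose. Grm3, which is not on the list and which the study placed in a subset of proprioceptors, fell (-0.67 ± 0.15, adjusted p = 0.0195). That call was lost without L1 replicate 2, L1 replicate 3 or L5 replicate 3 (highest adjusted p, 0.0998).

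The newborn arrays also gave the difference between proprioceptors and other neurons. Of the 726 genes that rose, 289 (39.8%) had been higher in newborn wild-type TrkC-positive than TrkC-negative neurons at the study's unadjusted p of at most 0.02 and 1.5-fold, against 9.09% of all genes, and 44 (6.06%) had been lower. Of the 563 genes that fell, 154 (27.4%) had been lower in TrkC-positive neurons, against 6.94% of all genes, and 52 (9.24%) had been higher. These are counts of genes, which are not independent of each other. On the study's list of 56 probe sets with opposite responses to NT3 loss and surplus, chosen on newborn arrays of the series, 16 rose at L5 and 3 fell with wheels, against 3.26% and 2.17% of all probe sets, and 10 rose and 2 fell without wheels. The list holds probe sets of either direction of response to NT3, which were not split here. Besides Hoxc10, Gabrg1 and Thrsp, the rises with wheels included Hapln4 (0.93 ± 0.15), a perineuronal net link protein, Ndst4 (0.76 ± 0.15), a heparan sulphate enzyme, and Unc5b (0.69 ± 0.09), a netrin receptor. The 3 falls were Syt17 (-0.78 ± 0.10), Grm3 (-0.67 ± 0.15) and a probe set not annotated to 1 gene (-0.50 ± 0.14). Another Syt17 probe set of the list did not pass (0.05 ± 0.09).

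More nociceptor markers fell than rose. Of 11 peptidergic nociceptor and thermoreceptor markers, 7 fell and 0 rose (median, -0.51), and of 10 markers of non-peptidergic nociceptors and itch neurons, 5 fell and 1 rose (median, -0.43). Their summed levels were 19797 to 22671 at L5 against 26330 to 31657 at L1 for the former, and 12714 to 14161 against 15130 to 18233 for the latter, the lowest L1 array being replicate 1 in each case. The irritant channel Trpa1 had intensities of 1760, 1776 and 1743 at L5 and of 2671, 3170 and 3022 at L1 (-0.74 ± 0.10, adjusted p = 0.000308). Its heat-gated relative Trpv1 fell as well (-0.45 ± 0.10, adjusted p = 0.0209). The calcitonin gene-related peptide gene Calcb had intensities of 3125, 3607 and 2995 at L5 and of 4402, 5573 and 5521 at L1 (-0.67 ± 0.11, adjusted p = 0.0023). Both Trpa1 and Calcb were separated between levels. Gfra3, the co-receptor for artemin, fell by 0.58 on the log2 scale (SE 0.11). Substance P precursor Tac1 (-0.32 ± 0.10, adjusted p = 0.0929), Scn10a (-0.10 ± 0.10) and Trpm8 (0.22 ± 0.09) did not pass. With 1 array left out at a time, 5 to 7 of the peptidergic list fell.

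Of the non-peptidergic and itch genes, the peptide somatostatin (Sst) had intensities of 56.7, 69.1 and 58.4 at L5 and of 116, 146 and 133 at L1 (-1.10 ± 0.12, adjusted p = 8.78e-05). The lysophosphatidic acid receptor Lpar3 had intensities of 824, 859 and 650 at L5 and of 1326, 1625 and 1573 at L1 (-0.96 ± 0.16, adjusted p = 0.00179). No L5 array reached an L1 array for either gene. The itch peptide Nppb fell (-0.89 ± 0.19, adjusted p = 0.0135), though not without L5 replicate 1, L5 replicate 3 or L1 replicate 2 (highest adjusted p, 0.0685), and the transcription factor Runx1 fell by 0.49 (SE 0.10). The glial cell line-derived neurotrophic factor (GDNF) co-receptor Gfra1 was the member that rose (0.41 ± 0.09, adjusted p = 0.0177).

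Low-threshold mechanoreceptor genes split. Of 12, 4 rose and 4 fell. The homeobox gene Shox2 (0.73 ± 0.14), the transcription factor Maf (0.45 ± 0.09), the vesicular glutamate transporter Slc17a7 (0.74 ± 0.15) and calretinin (Calb2, 0.85 ± 0.22) rose, the last only with all of L5 replicates 1 to 3 and L1 replicates 1 and 2 in the fit (otherwise up to an adjusted p of 0.125). Slc17a7 encodes vGlut1, the protein with which the study marked proprioceptor terminals in the spinal cord. Th, Gfra2 (-0.64 ± 0.11), Necab2 (-0.51 ± 0.12) and the GDNF family receptor Ret (-0.51 ± 0.13) fell. Ret had intensities of 3048, 3462 and 3040 at L5 and of 3504, 5088 and 5209 at L1, so that the lowest L1 array lay close to the highest L5 array. Its adjusted p was 0.0384. The call was lost without any 1 of L5 replicates 1 to 3, L1 replicates 2 and 3 or no wheel L1 replicate 2 (highest adjusted p, 0.159). The other Ret probe set differed by -0.01 ± 0.11. The brain-derived neurotrophic factor (BDNF) receptor TrkB (Ntrk2) did not pass on its brightest probe set (-0.39 ± 0.12, adjusted p = 0.0613), and 1 of its other probe sets was called lower (-0.48 ± 0.12, adjusted p = 0.0236).

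**Figure D3:**
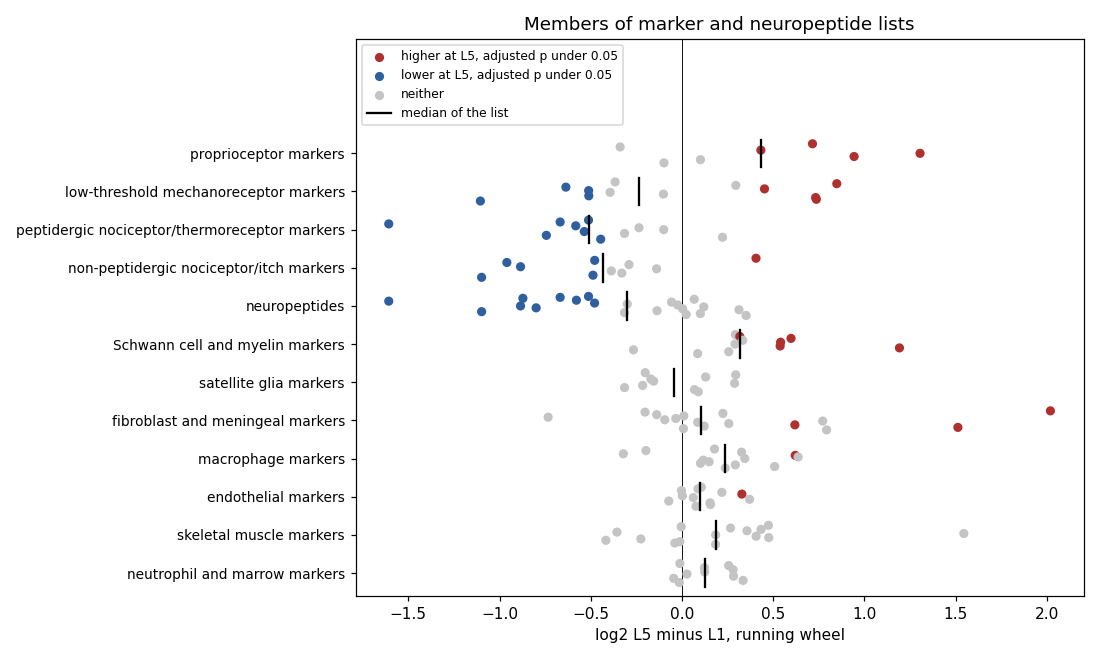
Log2 difference of L5 minus L1 with running wheels for each measured member of 12 lists. Red points rose and blue points fell at an adjusted p under 0.05, and black bars are list medians, which run from -0.51 for peptidergic nociceptor and thermoreceptor markers to 0.43 for proprioceptor markers.

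Neuropeptide genes showed falls and no rise. Of 21 measured, 9 fell, 0 rose and the median was -0.30. Besides Gal, Sst, Nppb and Calcb, they were Cartpt (-0.87 ± 0.18), Nts (-0.80 ± 0.21), Crh (-0.58 ± 0.11), Adcyap1 (-0.51 ± 0.10) and Nmb (-0.48 ± 0.12). The fall of Nts was lost without any of 6 arrays (highest adjusted p, 0.162). Among 29 neurotrophic factors and receptors, 5 rose and 4 fell. BDNF (Bdnf), made by peptidergic and other sensory neurons, had intensities of 665, 754 and 740 at L5 and of 352, 392 and 405 at L1 (0.91 ± 0.11, adjusted p = 0.000142). The levels were well apart, and in newborn TrkC-negative neurons Bdnf was higher at L5 by 2.20 ± 0.15 (adjusted p = 0.00039), but not in TrkC-positive neurons (-0.30 ± 0.16). Neuregulin 1 (Nrg1, 0.50 ± 0.12) and Fgf7 (0.49 ± 0.12) rose as well.

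Ion channels moved in both directions. Of 38 potassium channel genes, 2 rose and 6 fell. Kcnip1, an auxiliary subunit of Kv4 channels, had intensities of 809, 892 and 780 at L5 and of 405, 369 and 412 at L1 (1.06 ± 0.10, adjusted p = 9.94e-06). The Kv3 channel gene Kcnc4 had intensities of 859, 898 and 844 at L5 and of 1359, 1821 and 1741 at L1 (-0.91 ± 0.12, adjusted p = 0.000271). The pair went opposite ways, each without overlap. The leak channel Kcnk2 (-0.79 ± 0.12), Kcnc2 (-0.65 ± 0.12) and Kcna4 (-0.63 ± 0.13) fell. Of 12 sodium channel genes, 3 fell and 0 rose, with Scn3b (-0.58 ± 0.10) and Scn2b (-0.53 ± 0.08) ahead, and of 17 calcium and HCN channel genes, 3 rose and 3 fell, with Cacna1e at -1.02 ± 0.16 and Cacnb2 at 0.60 ± 0.12. Of 23 TRP, P2X and acid-sensing channel genes, 4 rose and 3 fell. The rises were the purinergic receptors P2rx6 (0.88 ± 0.14) and P2rx5 (0.64 ± 0.12) and the acid-sensing channels Asic1 (0.59 ± 0.12) and Asic3 (0.51 ± 0.11).

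Of 21 glutamate receptor genes, 3 rose and 4 fell. The AMPA receptor gene Gria4 had intensities of 1202, 1042 and 1040 at L5 and of 491, 531 and 548 at L1 (1.06 ± 0.13, adjusted p = 0.000175). Gria1 fell by 0.72 on the log2 scale (SE 0.10), so that AMPA subunits differed in direction, and the kainate receptor Grik4 fell by 0.86 (SE 0.13). Of 38 genes of transmitter release, 4 rose and 6 fell. The plasma membrane SNARE syntaxin 1A (Stx1a) had intensities of 855, 857 and 870 at L5 and of 1532, 1527 and 1545 at L1 (-0.83 ± 0.08, adjusted p = 1.28e-05). The spread within a level was small beside the gap. The synaptotagmin genes also parted, with Syt9 (-0.62 ± 0.10) and Syt17 (-0.78 ± 0.10) falling and Syt2 (0.55 ± 0.11) rising. The other Syt17 probe set did not pass (0.05 ± 0.09).

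Of 53 axon guidance genes, 9 rose and 6 fell. The secreted ligand Slit2 had intensities of 1187, 1130 and 1130 at L5 and of 500, 554 and 537 at L1 (1.12 ± 0.13, adjusted p = 8.22e-05), and its receptor Robo1 rose by 0.48 ± 0.11. The netrin receptors differed in direction: Unc5b (0.69 ± 0.09) and Unc5c (0.61 ± 0.09) rose, while Unc5d had intensities of 77.8, 78.2 and 73.8 at L5 and of 182, 151 and 164 at L1 (-1.11 ± 0.12, adjusted p = 7.5e-05). The semaphorin receptor Nrp1 fell by 0.55 (SE 0.10), on all of its 4 probe sets. Of 43 sensory and regional transcription factors, 6 rose and 7 fell. Lmo3 (0.95 ± 0.14), Tbx2 (0.76 ± 0.10), Shox2 and Esrrg were among the rises, and Bcl11a (-0.74 ± 0.09) and Tbx3 (-0.66 ± 0.13) were among the falls. For Bcl11a, 2 of 7 probe sets were called lower. With 1 array left out at a time, 3 to 8 of these factors fell and 3 to 6 rose, and 2 to 6 guidance genes fell.

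Some genes of the sheath and matrix rose, with uneven values between arrays. Comp, a cartilage and tendon matrix protein, had intensities of 428, 372 and 341 at L5 and of 76.2, 59.8 and 46.1 at L1 (2.67 ± 0.16, adjusted p = 1.69e-07). Ibsp, a bone sialoprotein, had intensities of 183, 192 and 184 at L5 and of 54.4, 57.2 and 64.1 at L1 (1.67 ± 0.20, adjusted p = 0.000148), while its dimmer probe set did not pass (0.14 ± 0.09). These were the 2 of 12 cartilage and bone markers that rose, and the other 10 did not pass in either direction. Slc6a20a, an amino acid transporter of meningeal cells, had intensities of 211, 103 and 113 at L5 and of 27.6, 24.9 and 18.8 at L1 (2.53 ± 0.41, adjusted p = 0.00173). The retinoic acid-forming enzyme Aldh1a2 had intensities of 279, 157 and 171 at L5 and of 113, 38.8 and 25.6 at L1 (2.02 ± 0.50, adjusted p = 0.0273). Prostaglandin D synthase (Ptgds) had intensities of 2260, 1338 and 1614 at L5 and of 544, 686 and 563 at L1 (1.51 ± 0.36, adjusted p = 0.0226). In all 3, L5 replicate 1 was the brightest array. A dimmer Ptgds probe set gave a larger rise (3.09 ± 0.55, adjusted p = 0.00346).

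The lubricating proteoglycan Prg4 (1.97 ± 0.47), the secreted peptide precursor Ecrg4 (1.74 ± 0.38) and the collagen-binding proteoglycan Fmod (1.72 ± 0.47) rose as well and were likewise brightest in L5 replicate 1. Without that array their adjusted p was 0.114, 0.0729 and 0.192, that of Aldh1a2 was 0.123 and that of Ptgds was 0.110. Aldh1a2, Ptgds, Prg4 and Fmod also lost the call without L1 replicate 2 and without L1 replicate 3 (highest adjusted p, 0.126, 0.110, 0.114 and 0.192 over all arrays left out). Of 16 fibroblast and meningeal markers, 3 rose (Aldh1a2, Ptgds and Ogn) and the median was 0.10. Without L5 replicate 1, 0 of them passed. The list's summed level was 13904 to 18482 at L5 and 12540 to 15518 at L1, so that the groups overlapped. Of 31 extracellular matrix genes, 8 rose and 2 fell (median, 0.16). Col12a1 (1.33 ± 0.27), Hapln4 and Col11a1 (0.77 ± 0.10) were among the rises, and the perineuronal matrix genes Vcan (-1.09 ± 0.13) and Tnr (-1.06 ± 0.12) were the falls. Without L5 replicate 1, 3 matrix genes rose, and Col12a1 was no longer among them (adjusted p = 0.0515).

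**Figure D4:**
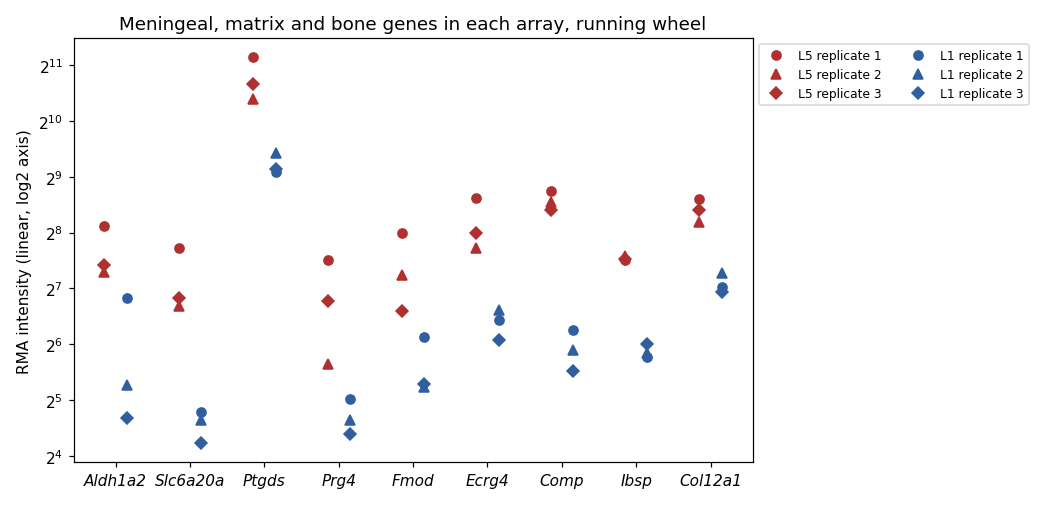
RMA intensity, on a log2 axis, of 9 meningeal, matrix and bone genes in each running wheel array, with 1 marker shape for each replicate number. For Aldh1a2, Slc6a20a, Ptgds, Prg4, Fmod and Ecrg4 the circle of L5 replicate 1 is the highest point, whereas Ibsp differs little within a level.

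Of 11 Schwann cell and myelin markers, 5 rose and 0 fell, with a median of 0.32. Pmp2, a lipid carrier of peripheral myelin, had intensities of 809, 1186 and 615 at L5 and of 390, 370 and 343 at L1 (1.19 ± 0.20, adjusted p = 0.00259). The L5 arrays lay apart from the L1 arrays and from each other. Egr2 (0.60 ± 0.14), Mal (0.54 ± 0.12), Ncmap (0.54 ± 0.11) and Dhh (0.32 ± 0.09) were closer to the threshold, and without L5 replicate 2 1 of 11 still passed. The list's summed level overlapped between L5 (18380 to 21545) and L1 (14338 to 19607). None of 10 satellite glia markers passed (Fabp7, -0.17 ± 0.12; median, -0.04), nor did any of 11 pericyte and smooth muscle markers. The vessel marker Esam and the complement gene C1qc were the only genes to pass among 12 endothelial and 13 macrophage markers, and both calls were lost when any of the 6 running wheel arrays was left out (highest adjusted p, 0.107 and 0.178).

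None of 15 skeletal muscle, 10 neutrophil and marrow, 6 erythroid, 9 lymphocyte or 8 adipocyte markers passed. Muscle markers summed to 659 to 1932 at L5 and 569 to 1376 at L1, with the higher values in replicate 1 of either level. The muscle actin gene Acta1 had intensities of 268, 66.5 and 122 at L5 and of 293, 53.4 and 51.6 at L1, which overlapped.

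Genes tied to neuronal activity and signalling were called in small numbers. Of 24 immediate early genes, 3 rose and 0 fell. Dusp1, an early phosphatase, had intensities of 1553, 1800 and 1729 at L5 and of 1053, 1092 and 1072 at L1 (0.66 ± 0.09, adjusted p = 0.000381), whereas Fos (0.18 ± 0.25), Egr1 (0.08 ± 0.16) and Arc (0.23 ± 0.11) did not pass. Of 16 targets of the ERK kinases, 2 rose and 2 fell, with Dusp4 at 0.68 ± 0.12 and Dusp5 at -0.46 ± 0.09. Of 21 clock genes, 2 rose and 1 fell, with Bhlhe40 at 0.57 ± 0.11 and Npas2 at -0.82 ± 0.14. Of 18 nerve injury genes, 3 fell, of which Gal is also a nociceptor gene, and the injury factor Atf3 did not pass (0.27 ± 0.14). None of 19 sterol synthesis genes passed.

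Counts of oxidative phosphorylation and cytoskeletal genes changed when 1 array was left out. Of 52 subunits of the respiratory chain, 1 rose and 1 fell, with a median of -0.16, and of 21 neurofilament and axonal cytoskeleton genes, 1 rose and 2 fell. Without L1 replicate 1, which had the lowest 99th percentile of the 6 arrays, 13 respiratory chain subunits and 8 cytoskeletal genes fell, and the part of that percentile was not tested. Heavy neurofilament (Nefh), a marker of large myelinated neurons, had intensities of 6582, 7019 and 6792 at L5 and of 5004, 7586 and 7311 at L1 (0.06 ± 0.13), so that its levels overlapped.

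The L5 and L1 ganglia of mice without wheels address the question whether running altered the difference between levels. They shared no array with the comparison above but were fitted together with it. Without wheels, 477 genes rose (2.62%) and 647 fell (3.56%). Of the 726 genes that rose with wheels, 255 (35.1%) also rose without, which was 53.5% of the latter, and of the 563 that fell, 284 (50.4%) also fell without, or 43.9% of the latter. The sign without wheels was the same for 667 of the 726 rises and 532 of the 563 falls, and across all 18193 genes the differences correlated at 0.59. These genes had been selected with wheels, and their median difference was 0.53 with and 0.30 without for the rises, and -0.50 with and -0.38 without for the falls.

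The test of the difference itself called 0 of 45037 probe sets in limma at an adjusted p under 0.05, and the smallest adjusted p was 0.0986. At an unadjusted p under 0.05 there were 5169 probe sets (11.5%). Without the no wheel L5 replicate 1, 216 probe sets passed. The leading genes of that set by size included the granulocyte genes Lcn2 (2.93 without and -0.13 with wheels) and Prg2 (2.22 without and -0.16 with wheels). Most of the set went the other way, with a higher L5 minus L1 difference with wheels. Among these were Hmbox1 (0.76 with and -0.86 without wheels) and Hadha (0.54 with and -1.06 without wheels). All of these genes were named after their values were seen. A Bdnf probe set was also among the 216 (1.21 with and 0.09 without wheels, adjusted p = 0.0303). Among the leading genes of the wheel comparison several differed by similar amounts in both conditions: Hoxc10 was 2.92 ± 0.15 higher at L5 without wheels, Comp 2.65 ± 0.16, Chodl 1.91 ± 0.15, Pvalb 0.94 ± 0.12, and Chrna3 fell by 2.00 (SE 0.12). Gabrg1 differed by 1.73 ± 0.16 without wheels against 2.19 with (unadjusted p of the difference, 0.0558), and Hoxa10 by 1.77 ± 0.11 against 2.20 (unadjusted p, 0.0111; adjusted p, 0.306).

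Some genes passed with wheels and not without, and the difference between conditions did not pass for any gene. Bdnf differed by 0.91 with and 0.23 ± 0.11 without wheels, a gap of 0.68 ± 0.15 (unadjusted p = 0.000488, adjusted p = 0.205). Dusp4 differed by 0.68 with and -0.07 ± 0.12 without (unadjusted p = 0.000702, adjusted p = 0.213). Stx1a fell under both conditions, by 0.83 with and 0.43 without on the log2 scale (unadjusted p = 0.00226). Dusp1, Tbx2, Gria4 and Gabra5 had gaps of 0.42, 0.52, 0.57 and 0.42 with unadjusted p from 0.00238 to 0.0109.

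**Figure D5:**
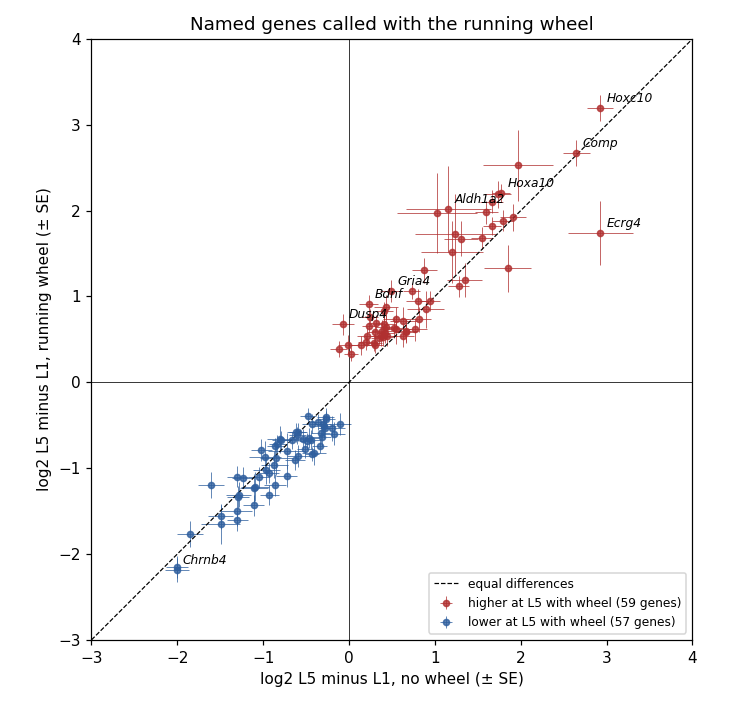
Log2 difference of L5 minus L1 with running wheels against that without, with limma's SE on both axes, for the 59 named genes that rose and the 57 that fell with wheels. Most points lie near the dashed line of equal differences. Bdnf and Dusp4 lie above it, and Ecrg4, at 1.74 with and 2.93 without wheels, lies below.

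Muscle and marrow markers were brightest in single L5 arrays of mice without wheels. The 15 muscle markers summed to 1471, 1568 and 9043 in those 3 arrays and to 570 to 882 at L1 without wheels. The 10 marrow markers summed to 1545, 9706 and 3907 in the same arrays and to 542 to 1898 at L1, so that the levels overlapped. The median L5 minus L1 difference was 1.69 for muscle and 1.73 for marrow markers without wheels, against 0.18 and 0.12 with wheels, and the test of the difference between conditions called 0 genes of either list. The part of these tissues in the comparison of conditions was not tested.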

How the data were processed

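RNA of adult DRG was measured on Affymetrix mouse arrays. Per the labels and the methods, the authors read the scanner files in R 2.9 with the affy package and ran RMA, which corrects background, quantile-normalizes and summarises probes, and deposited the result as a table of linear intensities. Whether all arrays were normalized together was not given in the sources used here. MAS5 calls were not used. The deposited intensities were taken to log2, since the planned test had assumed log2 values.

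Of 45101 probe sets, 64 AFFX controls were left out. A model with 4 group means was fitted to the 12 adult arrays in limma 3.58.1 (R 4.3.3), and p-values were adjusted over 45037 probe sets by Benjamini-Hochberg. Arrays of newborn neurons were fitted separately (11 arrays for levels, 16 for genotypes). By the platform annotation, 34945 probe sets had 1 gene, 932 several and 9160 none, and the brightest probe set by mean over the adult arrays stood for each of 18193 genes.

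Named genes were up to 15 called genes with the largest rise and 15 with the largest fall whose groups did not overlap, up to 4 called members of each list by size of difference, all Hox genes, and genes the study names for its adult arrays (Gabrg1, Ntrk2, Ntrk3, Ret and Pvalb). Other list members are given beside their list's count and were chosen after their values were seen. The genes and lists were chosen with earlier results of these data known. Alternatives covered normalization, a log offset of 50, dim probe sets, the test, a replicate block and leaving out each array. Same-numbered L1 and L5 running wheel arrays deviated together with correlations of 0.20, 0.07 and -0.06, so the numbers were not taken as pairs. The number of arrays limits precision: on simulated data for the running wheel comparison with 200 of 45037 probe sets changed, 40.5% were recovered at a log2 change of 0.5, 95.5% at 1 and 100% at 2. The simulation held no other group differences, whereas 1470 rises and 976 falls were called in the data. The adjusted threshold depends on how many probe sets change, so these shares do not carry over directly. An exact permutation test of 3 against 3 arrays cannot go below p = 0.1, so none is given.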

Additional observations from a re-analysis of the deposited data

How the results depend on the processing

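With 1 array left out at a time, the 1470 probe sets higher at L5 became 813 to 1832 and the 976 lower ones 475 to 1389. Rises were 910 without L1 replicate 2, 829 without L5 replicate 1 and 813 without L5 replicate 2. Falls were 546 and 511 without L1 replicates 2 and 3, and 475 and 630 without L5 replicates 1 and 3. Over all lists but those of nicotinic subunits and sympathetic markers, 76 members rose and 65 fell in the main fit. With 1 array left out, 43 to 83 of them rose (43 without L5 replicate 1, 49 without L5 replicate 2). Falls then numbered 39 to 100 (100 without L1 replicate 1, 43 and 40 without L1 replicates 2 and 3, 39 and 43 without L5 replicates 1 and 3). The test between running wheel and no wheel gave 0 to 216 probe sets (216 without no wheel L5 replicate 1, 7 without running wheel L1 replicate 1, 1 without no wheel L5 replicate 3 and 1 without running wheel L5 replicate 3), 2 over the probe sets above the median brightness and 2 with an intensity trend and robust variances. Adding 50 before log2, which shrinks differences of dim probe sets, left 261 rises and 142 falls at the study's thresholds. The methods' t-test gave 149 rises and 48 falls after Benjamini-Hochberg, and at the study's thresholds 574 and 293, and unmoderated variances gave 656 and 479. With the replicate number as a block the counts were 1323 and 925, a change of under 1.5 times, as for the other counts in the fit of 12 arrays. The 6 running wheel arrays alone gave 2043 and 1162 without the block and 2386 and 1530 with it. The other causes were not tested. Of 116 named genes called, 97 were run under 21 alternatives, of which 64 were called in each, and 19 dimmer genes under 20, of which 17 were called in each, and 0 of the 116 changed sign.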
